A study of Mus musculus with 26 samples.

Results

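Sox2 and 9 related members of the Sox gene family were followed in mouse neural stem and progenitor cells (NSPCs) that lacked or kept Sox2. The 10 genes were chosen by symbol from branches of the family: Sox2, Sox1 and Sox3 (SOXB1) with Sox21 (SOXB2), Sox9 and Sox8 (SOXE), Sox4 and Sox11 (SOXC), and Sox5 and Sox6 (SOXD). All 10 were measured, each by 1 transcript cluster, among 19505 genes in the deposited table. The question was whether other Sox genes change when Sox2 is lost, and whether any of them responds to a glucocorticoid.

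SOX proteins are transcription factors that bind a short DNA motif through a high mobility group box. SOX2 and its close relatives SOX1 and SOX3 keep neural progenitors undifferentiated and often bind next to a POU factor, while SOX21 opposes them and favours neuronal differentiation. SOX9 and SOX8 act in glial specification, SOX4 and SOX11 drive neuronal gene programmes in newborn neurons, and SOX5 and SOX6, which lack an activation domain of their own, modulate other SOX proteins. SOX1, SOX2 and SOX3 are known to substitute for one another in part in the developing nervous system.

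The cells were cortical cultures from the telencephalon of C57BL/6 mice at postnatal day 0, which the labels also call embryonic or fetal, grown with EGF and FGF-1. There were 4 groups: SOX2 KO with dexamethasone (Dex, a synthetic glucocorticoid, 100 nM for 4 h after passage 3), SOX2 KO with ethanol vehicle, WT with Dex and WT with vehicle. The 7 SOX2 KO cultures (7 to 13) and the 6 WT cultures (1 to 6) each gave 1 Dex and 1 vehicle array, 26 arrays in all, and the labels state that the cultures of different animals were kept apart. Both sexes were used, with no sex given for any array. The allele and the way SOX2 was removed are not given in the sources used here. Values are the authors' array values, read as log2 expression, and a difference of 1 is then a 2-fold change. They are compared only within a gene, since the level of one probe set cannot be compared with that of another.

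For hierarchical clustering over all genes, the mean of each of the 4 groups was first removed, and the 2 arrays of a culture were averaged. The tree was cut into 3 array clusters, a chosen number, and the labels have no name for them. Genotype differences were thus taken out beforehand, so the mixing of genotypes within clusters is not a result. The clusters come from the tested arrays, and p-values with the cluster as a covariate do not allow for that. Cluster 1 held cultures 7 and 8 (SOX2 KO) and 1, 2 and 3 (WT), cluster 2 held 10 and 12 (SOX2 KO) and 4 (WT), and cluster 3 held 9, 11 and 13 (SOX2 KO) and 5 and 6 (WT). Upper quartiles were 10.09 to 10.43 log2 units in cluster 1, 9.38 to 9.78 in cluster 2 and 9.58 to 9.79 in cluster 3. In culture 4 the mean of 9 glucocorticoid-induced genes was 9.32 on the array labelled Dex and 11.68 on the array labelled vehicle, whereas the array labelled Dex was the higher one in the other 12 cultures. Both arrays of culture 4 were kept under their labels, and Dex results are given with and without it. The labelled cell type was checked on markers. Of the measured neural stem and progenitor markers, 10 of 11 lay above the array median on all 26 arrays. So did 8 of 11 astrocyte, 5 of 11 neuronal and 4 of 9 oligodendrocyte lineage markers. By contrast 5 of 7 microglial, 4 of 6 endothelial and 5 of 7 mesenchymal and meningeal markers lay below it on all 26. The check therefore does not separate progenitors from glia or neurons.

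Promoter windows of 300 bases, from 250 before to 50 after an annotated transcription start, were available from RefSeq (GRCm38.p6, mouse) for 8 of the 10 genes, in 13 windows of which 6 belonged to Sox6. The windows for Sox3 and Sox9 were not used here. Each window was searched on both strands for the SOX core motifs ACAATG and ACAAAG (on the other strand CATTGT and CTTTGT), whose matches may overlap, and for the palindromic glucocorticoid response element, AGAACA and TGTTCT with 3 free bases between them. The sequences, each 5′ to 3′ in the direction of the gene, are the window of Sox2, the deleted gene, at chr3:34649745-34650044 on the plus strand, that of Sox21, which had the lowest genotype difference among the other members, at chr14:118236981-118237280 on the minus strand, and the Sox6 window with the most matches, at chr7:115995037-115995336 on the minus strand. Capitals mark SOX core matches on either strand.
Sox2: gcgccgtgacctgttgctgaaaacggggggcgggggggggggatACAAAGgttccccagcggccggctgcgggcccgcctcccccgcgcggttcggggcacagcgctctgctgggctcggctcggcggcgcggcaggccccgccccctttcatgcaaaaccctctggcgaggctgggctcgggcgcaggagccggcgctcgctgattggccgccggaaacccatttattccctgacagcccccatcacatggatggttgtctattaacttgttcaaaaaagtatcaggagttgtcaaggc
Sox21: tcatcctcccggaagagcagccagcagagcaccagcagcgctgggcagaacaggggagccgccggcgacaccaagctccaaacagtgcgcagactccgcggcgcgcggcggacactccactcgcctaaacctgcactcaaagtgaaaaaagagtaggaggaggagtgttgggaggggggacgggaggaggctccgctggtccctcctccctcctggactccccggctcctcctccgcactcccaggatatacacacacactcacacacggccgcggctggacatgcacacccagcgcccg
Sox6: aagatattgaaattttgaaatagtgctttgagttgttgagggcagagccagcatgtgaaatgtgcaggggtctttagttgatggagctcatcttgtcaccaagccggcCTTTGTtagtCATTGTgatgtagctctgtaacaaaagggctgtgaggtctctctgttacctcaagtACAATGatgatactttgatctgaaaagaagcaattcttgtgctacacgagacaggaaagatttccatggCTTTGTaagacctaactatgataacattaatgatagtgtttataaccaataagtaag

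The Sox2 window held 1 ACAAAG match and the Sox21 window none. The Sox6 window held 2 matches of each motif. Over all 8 genes, a SOX core was found in the windows of 3, namely Sox2, Sox5 and Sox6, and in 7 of the 13 windows, beside 28.6% of 32851 mouse promoter windows of the same length. Among the 7 windows, 1 was of Sox2, 1 of Sox5 and the rest were of Sox6, so the window count rests mostly on 1 gene. The share of all genes with a match was not counted. The glucocorticoid element was in none of the 13 windows and in 0.00913% of all windows. These matches describe letters in the windows, not bound sites.

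Sox2 was low on every SOX2 KO array and high on every WT array. In vehicle it was between 3.95 and 5.48 (median 4.51) on the 7 SOX2 KO arrays, against 12.67 to 14.39 (median 13.215) on the 6 WT arrays. In Dex it was between 3.92 and 6.50 (median 4.74) on the SOX2 KO arrays, against 12.17 to 13.82 (median 12.985) on the WT arrays. No SOX2 KO array came near a WT array, so the Sox2 level went with the genotype label on all 26 arrays. The order of the group means was SOX2 KO vehicle, SOX2 KO Dex, WT Dex and WT vehicle, and only the step between genotypes passed the test.

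Averaged over the 2 arrays of a culture, Sox2 was 4.72 ± 0.69 (SD, n = 7) in SOX2 KO and 13.18 ± 0.56 (SD, n = 6) in WT cultures. The fitted difference of SOX2 KO minus WT was -8.75 ± 0.35 log2 units (SE) in vehicle (limma, adjusted p = 3.61e-17), -8.17 ± 0.35 in Dex (adjusted p = 2.49e-16) and -8.46 ± 0.31 on culture means (adjusted p = 2.05e-11). The culture means in SOX2 KO were 3.94 to 5.99, below the array medians of 6.44 to 6.84. The table gives no background level, so a SOX2 KO value may be background signal and the size of the difference is limited by it. SOX2 KO was lower than WT within each of the 3 clusters, by 7.26 log2 units or more.

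**Figure D1:**
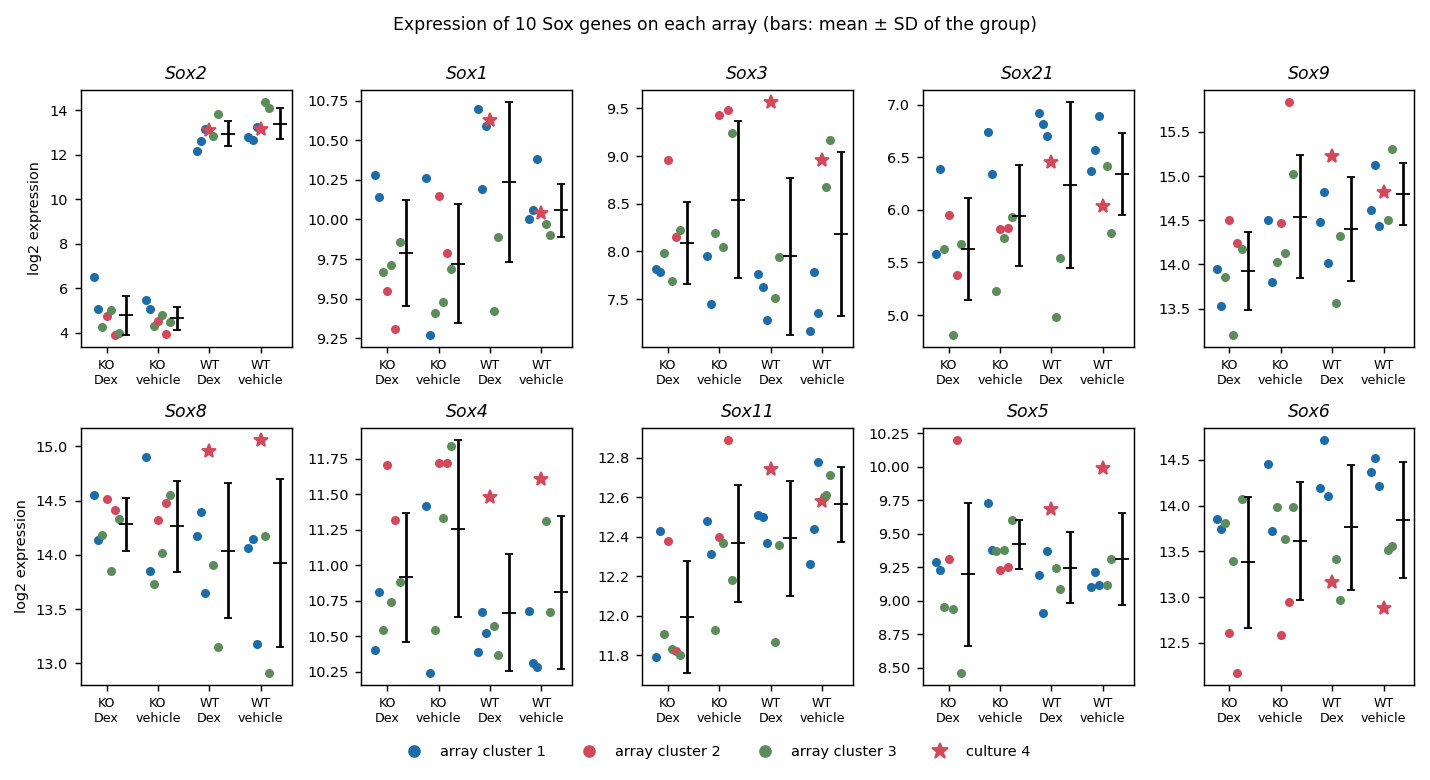
Log2 expression (vertical axis, own scale for each gene) of the 10 Sox genes on each of the 26 arrays, by group, with points coloured by array cluster, stars for culture 4, and bars for the group mean ± SD. SOX2 KO and WT arrays are separated for Sox2, at 6.50 or below against 12.17 or above, and overlap for each of the other 9 genes.

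None of the other 9 Sox genes passed the test between genotypes, in vehicle, in Dex or on culture means. The count of members called was 1 of 10 in vehicle, where 0.559% of all genes were called, 1 of 10 in Dex, beside 0.564%, and 1 of 10 on culture means, beside 0.733%, and the 1 was Sox2 each time. At an unadjusted p under 0.05, limma gave 0 of the other 9 in vehicle, 3 in Dex (Sox11, Sox1 and Sox21) and 2 on culture means (Sox1 and Sox21), when 5.17%, 7.56% and 6.40% of all genes did so in these comparisons. These unadjusted counts moved with single cultures. The count in vehicle was 2 without culture 4, beside 6.27% of all genes, and 1 without culture 8, beside 5.61%. The count in Dex was 0 without culture 1, 2, 4, 11 or 13, 1 without culture 3, 7 or 9 and 4 without culture 5, and it was 0 with quantile normalization, median centring or the 2 groups alone. The count on culture means was 0 without culture 1, 2, 3, 9, 11 or 13 and 3 without culture 5. With the array cluster as a covariate the counts were 0 in vehicle, 4 in Dex and 4 on culture means. In that fit 10%, 13.4% and 13.7% of all genes had such a p.

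The median difference of the 9 genes was -0.20 in vehicle, -0.38 in Dex and -0.30 on culture means, with medians over all genes of -0.03, -0.06 and -0.04. In vehicle the median of the 9 came to -0.121 without culture 1, -0.0909 without culture 2, -0.125 without culture 9, -0.055 without culture 10 and -0.115 without culture 12. Leaving out culture 2, 10 or 12 gave -0.192, -0.255 and -0.217 in Dex and -0.141, -0.155 and -0.148 on culture means. With the array cluster as a covariate the medians were -0.0035 in vehicle, -0.16 in Dex and -0.08 on culture means. The p-values on culture means refer to the spread between cultures that the labels describe as separate. Those in vehicle and in Dex use 1 spread estimated over all 26 arrays, with the 2 arrays of a culture taken as independent. In vehicle the lowest lower bound among the 9 intervals at 95% confidence was -0.995 log2 units (Sox21) and the highest upper bound 1.13 (Sox3).

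**Figure D2:**
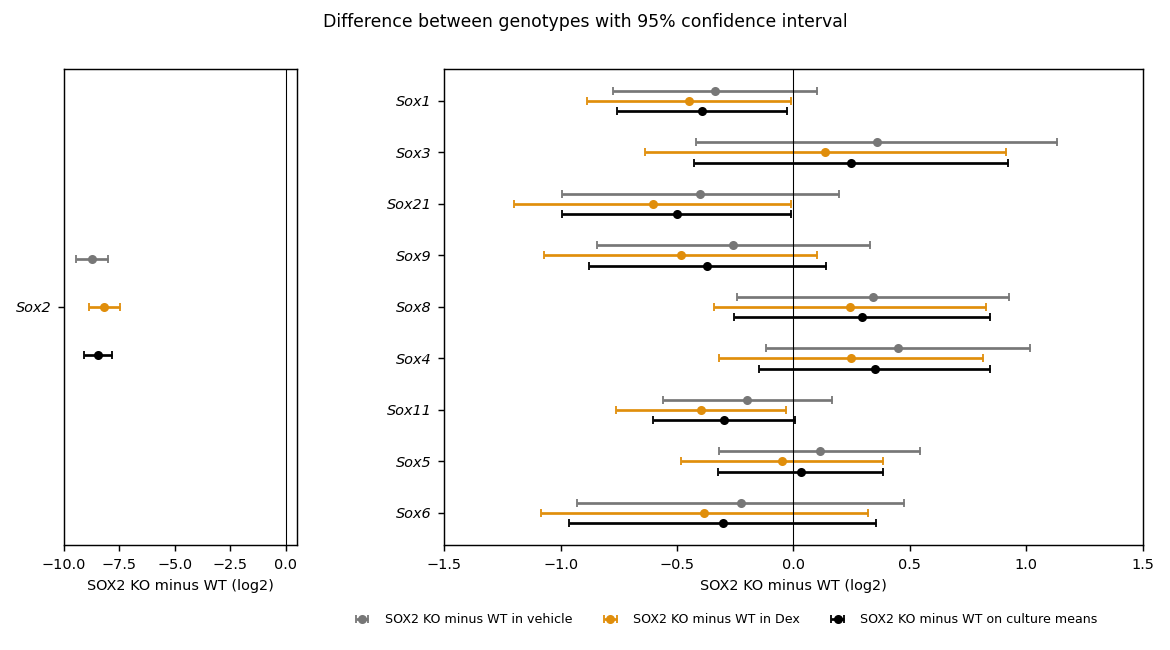
SOX2 KO minus WT in log2 units (horizontal axis) for Sox2 (left panel) and the other 9 genes (right panel, another scale) in vehicle, in Dex and on culture means. Points are limma estimates and lines 95% confidence intervals. Sox2 lies at -8.75, -8.17 and -8.46, and the intervals of the others reach 0 or end close to it.

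Among the SOXB1 genes that remained, Sox1 had slightly lower values in SOX2 KO. In vehicle it was between 9.27 and 10.26 (median 9.69) in SOX2 KO, against 9.90 to 10.38 (median 10.02) in WT. In Dex it was between 9.31 and 10.28 (median 9.71) in SOX2 KO, against 9.42 to 10.70 (median 10.39) in WT. The groups overlapped in both treatments, although 5 of the 7 vehicle arrays of SOX2 KO cultures lay below all 6 WT ones. On culture means Sox1 was 9.76 ± 0.26 (SD, n = 7) in SOX2 KO and 10.15 ± 0.30 (SD, n = 6) in WT, a difference of -0.39 ± 0.17 (SE, limma, 95% interval -0.76 to -0.03, unadjusted p = 0.0373, adjusted p = 0.706). As a fold that is 0.762, with an interval of 0.591 to 0.982.

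Sox3, the X-linked SOXB1 gene, varied more between cultures than between genotypes. In vehicle it was between 7.45 and 9.48 (median 8.19) in SOX2 KO, against 7.16 to 9.17 (median 8.23) in WT, and in Dex between 7.69 and 8.96 (median 7.98) in SOX2 KO, against 7.28 to 9.57 (median 7.695) in WT. The groups overlapped over most of their range. The difference on culture means was 0.25 ± 0.32 (SE, limma, 95% interval -0.43 to 0.92, adjusted p = 1.00). Neither Sox1 nor Sox3 was therefore called higher in the cells without Sox2, and the upper bounds on culture means were folds of 0.982 for Sox1 and 1.90 for Sox3.

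Sox21, the SOXB2 gene, had the lowest difference among the other members. In vehicle it was between 5.23 and 6.74 (median 5.83) in SOX2 KO, against 5.78 to 6.89 (median 6.395) in WT, and in Dex between 4.81 and 6.39 (median 5.63) in SOX2 KO, against 4.98 to 6.92 (median 6.58) in WT. The ranges overlapped, and the culture means of all 7 SOX2 KO cultures lay below the WT median of 6.45. The means were 5.79 ± 0.39 (SD, n = 7) in SOX2 KO and 6.29 ± 0.51 (SD, n = 6) in WT, and the difference was -0.50 ± 0.23 (SE, limma, 95% interval -0.99 to -0.01, unadjusted p = 0.0460, adjusted p = 0.767). All Sox21 values lay close to or below the array medians of 6.44 to 6.84.

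The SOXE genes did not pass in either direction. Sox9, a gene of glial fate and of neural stem cell upkeep, was between 13.80 and 15.84 (median 14.47) in SOX2 KO, against 14.43 to 15.30 (median 14.72) in WT, in vehicle. In Dex it was between 13.20 and 14.50 (median 13.95) in SOX2 KO, against 13.56 to 15.23 (median 14.40) in WT. The genotypes overlapped, and the highest value of all was the vehicle array of SOX2 KO culture 12. On culture means the difference was -0.37 ± 0.24 (SE, limma, 95% interval -0.88 to 0.14, adjusted p = 1.00). Sox8 was between 13.73 and 14.90 (median 14.32) in SOX2 KO, against 12.91 to 15.06 (median 14.105) in WT, in vehicle, and its SOX2 KO values lay inside the WT range. Dex arrays gave 13.85 to 14.55 (median 14.33) in SOX2 KO, against 13.15 to 14.96 (median 14.04) in WT, again inside. Its difference on culture means was 0.29 ± 0.26 (95% interval -0.26 to 0.84).

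The SOXC genes leaned in opposite directions without passing. Sox11 was between 11.93 and 12.89 (median 12.37) in SOX2 KO, against 12.26 to 12.78 (median 12.595) in WT, in vehicle, and between 11.79 and 12.43 (median 11.83) in SOX2 KO, against 11.87 to 12.74 (median 12.435) in WT, in Dex. The ranges overlapped, but all 7 SOX2 KO culture means lay below the WT median of 12.50 and 4 of the 7 lay below the lowest WT culture. The culture means averaged 12.18 ± 0.19 (SD, n = 7) in SOX2 KO and 12.48 ± 0.15 (SD, n = 6) in WT, a difference of -0.30 ± 0.14 (SE, limma, 95% interval -0.60 to 0.01, adjusted p = 0.809). Sox4 was between 10.24 and 11.84 (median 11.42) in SOX2 KO, against 10.28 to 11.61 (median 10.675) in WT, in vehicle. Its Dex values were 10.40 to 11.71 (median 10.81) in SOX2 KO, against 10.37 to 11.48 (median 10.545) in WT. The groups overlapped in both treatments. The difference of Sox4 on culture means was 0.35 ± 0.24 (95% interval -0.15 to 0.85), and 1 of the 7 SOX2 KO cultures lay below the WT median.

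Neither SOXD gene showed a difference beyond its spread. Sox5 was between 9.23 and 9.73 (median 9.38) in SOX2 KO, against 9.10 to 9.99 (median 9.165) in WT, in vehicle, so that SOX2 KO lay within the WT range. With Dex the range was 8.46 to 10.20 (median 9.23) in SOX2 KO, against 8.91 to 9.68 (median 9.215) in WT, and here WT lay within the SOX2 KO range. Its difference on culture means was 0.03 ± 0.17 (SE, limma, 95% interval -0.32 to 0.38). Sox6 was between 12.59 and 14.46 (median 13.72) in SOX2 KO, against 12.88 to 14.52 (median 13.885) in WT, in vehicle, with nearly the same range in both. Dex arrays ranged over 12.17 to 14.07 (median 13.75) in SOX2 KO, against 12.97 to 14.72 (median 13.765) in WT, with overlap. Its difference on culture means was -0.30 ± 0.31 (95% interval -0.97 to 0.36).

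Several of these genes moved with the array cluster. Sox3 ranged over 7.16 to 7.95 in cluster 1 (10 arrays), 8.15 to 9.57 in cluster 2 (6 arrays) and 7.51 to 9.24 in cluster 3 (10 arrays). Sox6 ran the other way, at 13.72 to 14.72, 12.17 to 13.17 and 12.97 to 14.07 in the same order, and Sox4 was at 10.24 to 11.42, 11.32 to 11.72 and 10.37 to 11.84. Clusters 1 and 2 did not overlap for Sox3 or Sox6. How many of all genes were separated in this way was not counted, and the upper quartiles of these 2 clusters also differed. The clusters were found from all genes, these included, and their part in the genotype values was examined by comparing genotypes within each.

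Within clusters 1, 2 and 3, SOX2 KO minus WT culture means of Sox21 were -0.45, -0.51 and -0.18. For Sox11 they were -0.22, -0.29 and -0.38, for Sox1 -0.33, -0.64 and -0.16, and for Sox9 -0.64, -0.26 and -0.35. On these means the 4 genes had the same sign in every cluster, as Sox4 did with 0.24, 0.07 and 0.25, while Sox3, Sox8, Sox5 and Sox6 changed sign between clusters. The share of all genes that kept their sign over the clusters was not counted, so no weight can be put on this pattern. With the treatments apart, Sox4 kept its sign throughout, but in cluster 3 in Dex Sox21 was at 0.11 and Sox1 at 0.09, and in cluster 2 in vehicle Sox11 was at 0.065 and Sox9 at 0.335. Cluster 2 holds 1 WT culture, culture 4, and no test was run within a cluster. With the cluster as a covariate the differences on culture means were -0.36 ± 0.12 for Sox21 (SE, limma, adjusted p = 0.167), -0.30 ± 0.11 for Sox11 (adjusted p = 0.191), -0.33 ± 0.13 for Sox1 (adjusted p = 0.255) and -0.44 ± 0.19 for Sox9 (adjusted p = 0.311). The unadjusted p-values of these 4 genes were between 0.0102 and 0.0362, in a fit where 13.7% of all genes had one under 0.05. After adjustment over all genes 1 of the 10 members, Sox2, was called, beside 2.82% of all genes.

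**Figure D3:**
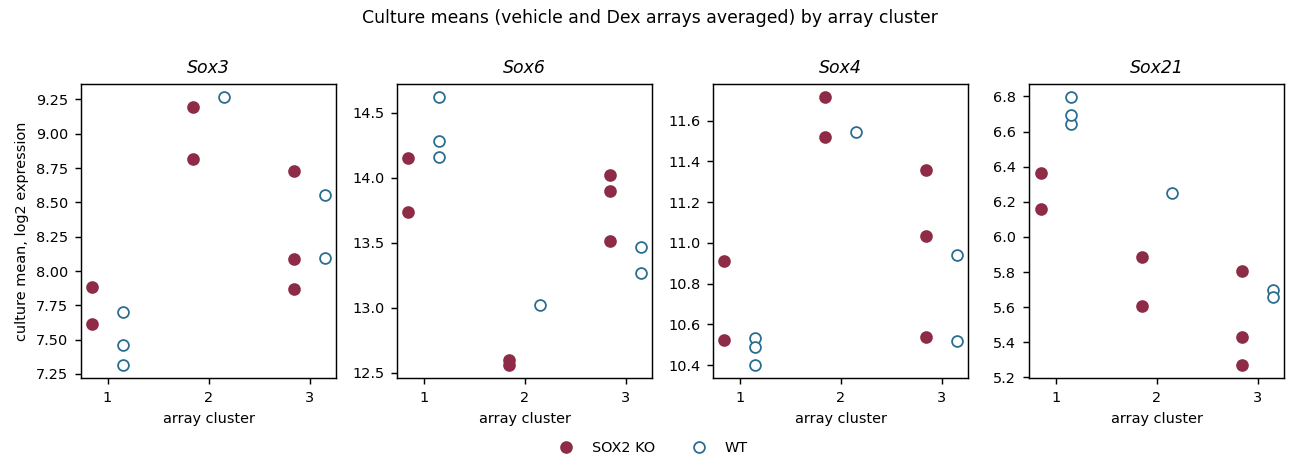
Culture means (vertical axis, log2 expression, mean of the Dex and vehicle arrays) of Sox3, Sox6, Sox4 and Sox21 by array cluster, with SOX2 KO cultures filled and left of the open WT cultures. Sox3 and Sox4 are highest in cluster 2, Sox6 is lowest there, and Sox21 is lower in SOX2 KO on average within each of the 3 clusters.

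Dex was then compared with vehicle. In SOX2 KO cultures 0 of the 10 Sox genes were called by limma, beside 0.0513% of all genes (10 genes), and in WT cultures 0 of 10, beside 0% of all genes, where 188 genes had an unadjusted p under 0.05. Unadjusted p-values under 0.05 were found for Sox9 and Sox11 in SOX2 KO, where 2.84% of all genes had one, and for no member in WT. In SOX2 KO the count of 2 was 1 without culture 12 and 0 without culture 7, 11 or 13 or with quantile normalization. With the culture as a replicate block and without culture 4, again 0 of 10 were called in SOX2 KO, beside 0.251% of all genes, and 0 of 10 in WT, beside 0.169%. In that fit unadjusted p-values under 0.05 were found for 2 members in SOX2 KO, beside 9.74% of all genes. In WT they were found for 2, Sox2 and Sox9, beside 4.93%. The Dex effect in SOX2 KO minus that in WT was called for 0 of 10, beside 0% of all genes (140 genes at an unadjusted p under 0.05), and with the block and without culture 4 also for 0 of 10, beside 0% (644 genes at an unadjusted p under 0.05). Sox2 was the 1 member among these 644 genes, which were 3.3% of all genes.

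Sox9 had the lowest Dex difference of the 9 genes other than Sox2 in both genotypes. It was lower on the Dex array in 6 of the 7 SOX2 KO cultures, with differences of -1.60 to 0.03, and in 5 of the 6 WT cultures, with differences of -0.98 to 0.41. The WT culture with the higher value was culture 4, whose glucocorticoid-induced genes ran against its labels, and without it Sox9 was lower in 11 of 12 cultures. The fitted difference was -0.62 ± 0.28 in SOX2 KO (SE, limma, unadjusted p = 0.0321, adjusted p = 0.999) and -0.40 ± 0.30 in WT (adjusted p = 1.00), and the difference between the 2 genotypes' effects did not pass (-0.23 ± 0.41, 95% interval -1.05 to 0.60).

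Averaging the Dex effect over both genotypes, a comparison added after the data were seen, called 0 of 10 members, beside 0.0769% of all genes. Sox9 stood at -0.51 ± 0.20 (SE, limma, unadjusted p = 0.0181, adjusted p = 1.00). With the replicate block and without culture 4, 0 of 10 were called, beside 0.497% of all genes, and Sox9 stood at -0.59 ± 0.14 (unadjusted p = 5.46e-04, adjusted p = 0.0825). In that fit Sox11 was at -0.30 ± 0.12 (adjusted p = 0.430) and Sox3 at -0.43 ± 0.17 (adjusted p = 0.427). No call of a Dex response in a Sox gene therefore resulted, with Sox9 the closest to the threshold of 0.05.

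Sox2 itself was lower on the array labelled Dex in 6 of 6 WT cultures, by values that spread widely. Culture 4, whose glucocorticoid-induced genes ran against its labels, was among them at -0.06, and without it the count was 5 of 5. The differences were -1.54 in culture 5, -0.63 in culture 1, -0.31 in culture 6 and -0.07 to -0.03 in cultures 2, 3 and 4. The fitted difference in WT was -0.44 ± 0.36 (SE, limma, 95% interval -1.18 to 0.30, adjusted p = 1.00). Leaving out culture 4 and blocking on the culture gave -0.52 ± 0.22 (adjusted p = 0.974). Without culture 5 it was -0.22 ± 0.39. In SOX2 KO cultures, where the signal was 6.50 or below, the differences were -0.46 to 1.02 with 4 of 7 higher.

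The other members had Dex differences of both signs. Sox3 was lower in 6 of 7 SOX2 KO cultures (-1.33 to 0.33) and 4 of 6 WT cultures (-1.23 to 0.61), and Sox11 in 6 of 7 SOX2 KO cultures (-1.07 to 0.12) and 3 of 6 WT cultures (-0.74 to 0.25). Sox8 stayed near 0, with -0.35 to 0.45 in SOX2 KO and -0.26 to 0.47 in WT, and Sox1 was higher in 5 of 7 SOX2 KO cultures (-0.60 to 0.87) and 4 of 6 WT cultures (-0.55 to 0.70). Sox21, Sox4, Sox5 and Sox6 had between 3 and 5 cultures lower in each genotype. The median Dex difference of the 9 genes other than Sox2 was -0.31 in SOX2 KO, where the median over all genes was -0.02, and -0.11 in WT, where it was 0.00. It was -0.187 in SOX2 KO without culture 7, and in WT -0.048 without culture 5, -0.036 without culture 6 and -0.18 without culture 2.

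**Figure D4:**
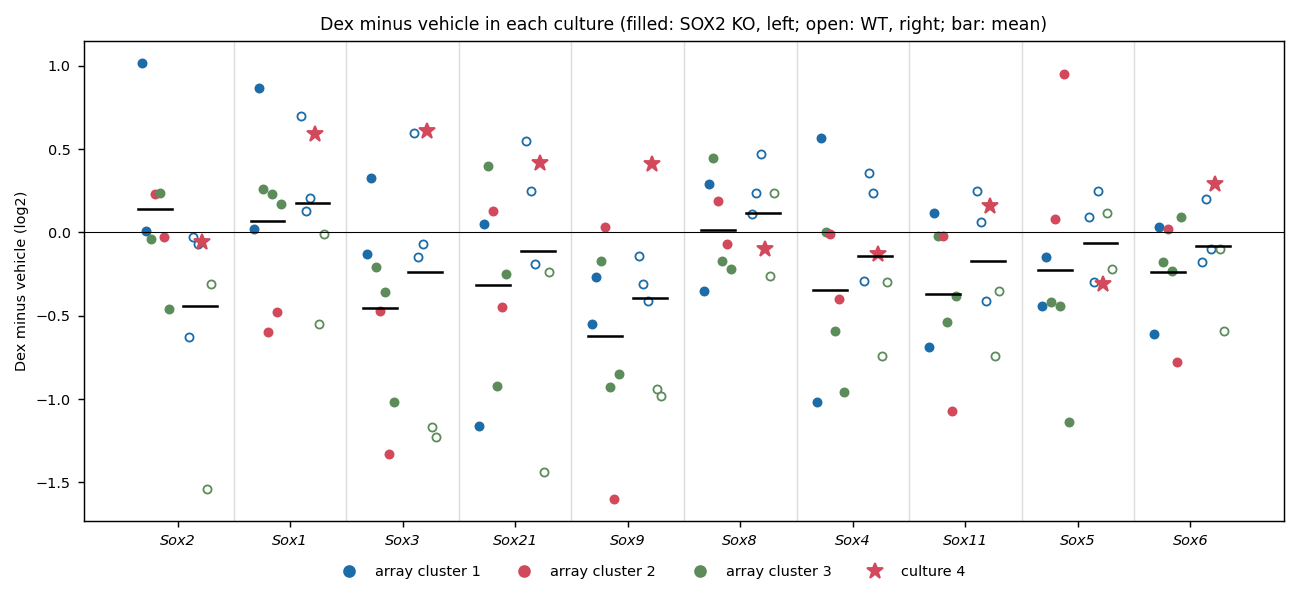
Dex minus vehicle in log2 units (vertical axis) for each of the 13 cultures and 10 Sox genes, with SOX2 KO cultures filled and on the left, WT cultures open and on the right, colour for the array cluster, stars for culture 4 and bars for the mean. For Sox9 11 of 13 points lie below 0, and for Sox2 all 6 WT points do, with culture 4 taken by its labels.

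Of the rest of the family, 10 further Sox genes were measured, among them Sox10 of the SOXE, Sox12 of the SOXC and Sox13 of the SOXD branch, and 0 were called in any of the 3 genotype comparisons. Their differences on culture means were between -0.53 and 0.20 with a median of 0.03. At an unadjusted p under 0.05 there was 1 of 10 in vehicle, Sox13, and 0 of 10 in Dex and on culture means. Such a p was found for 5.17%, 7.56% and 6.4% of all genes in the same order. The share of all genes called was 0.559%, 0.564% and 0.733%. Of these 10 genes 5 were below the array median on all 26 arrays, so that low signal limits what could be seen for them.

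Genes known as partners or targets of SOX2 were followed as a list of 24, of which 22 were measured. In vehicle 0 of the 22 were called (6 at an unadjusted p under 0.05, limma), in Dex 1 rose and 0 fell, and on culture means 0 were called (6 at an unadjusted p under 0.05). Of all genes 0.559% were called in vehicle, 0.564% in Dex and 0.733% on culture means. An unadjusted p under 0.05 was found for 5.17% of all genes in vehicle and 6.4% on culture means. The 1 gene of the 22 that rose was Otx2, which encodes a homeodomain factor of the anterior brain. In Dex it was between 8.85 and 11.20 in SOX2 KO, against 7.06 to 9.25 in WT, overlapping at the edge, with a difference of 1.62 ± 0.39 (SE, limma, adjusted p = 0.0488, and 0.0476 without culture 4). In vehicle it was between 8.57 and 10.71 in SOX2 KO, against 7.85 to 9.58 in WT, and the difference was 1.11 ± 0.39 (adjusted p = 0.395).

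Egfr, the receptor for the EGF in the medium, was between 10.39 and 11.72 in SOX2 KO, against 11.39 to 12.33 in WT, in vehicle. On culture means it differed by -0.91 ± 0.21 (SE, limma, adjusted p = 0.0618), close to the threshold. The Hedgehog effector Gli2 differed by -1.11 ± 0.31 (adjusted p = 0.151) and the Notch ligand Jag1 by -0.62 ± 0.17 (adjusted p = 0.143). With the array cluster as a covariate, 2 of the 22 rose on culture means, Otx2 (adjusted p = 0.0367) and the POU factor gene Pou3f1, and 3 fell, Egfr (adjusted p = 0.00476), Gli2 (adjusted p = 0.0354) and Jag1 (adjusted p = 0.0472). That fit called 550 of all 19505 genes, against 143 without the covariate. Its clusters were drawn from the spread of these same arrays within groups, which its p-values do not allow for. The median of the 22 on culture means was -0.07, against -0.04 for all genes.

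**Figure D5:**
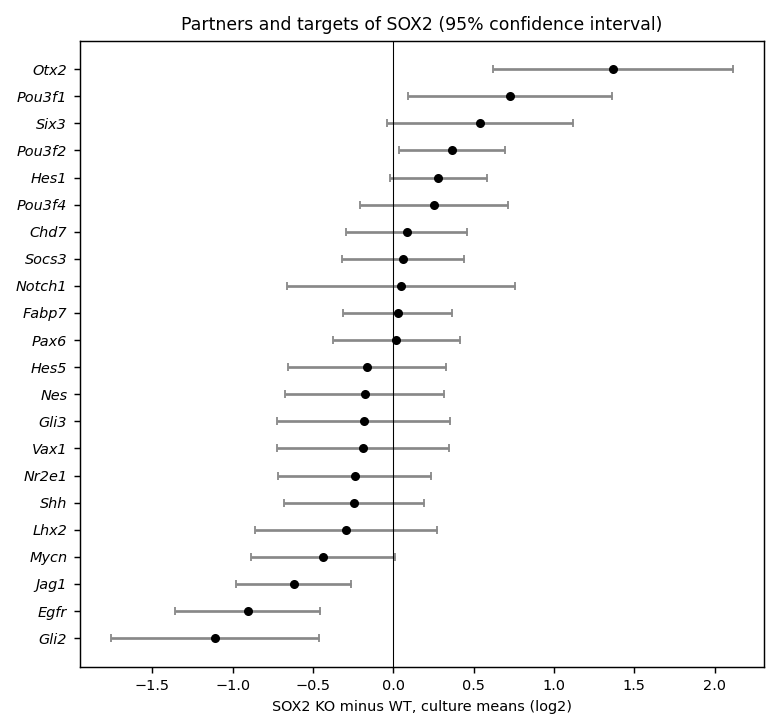
SOX2 KO minus WT on culture means in log2 units (horizontal axis) for the 22 measured partners and targets of SOX2, with limma estimates as points and 95% confidence intervals as lines. Otx2 is the highest at 1.37 and Gli2 the lowest at -1.11, and none passed the threshold in this comparison.

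Markers of the cell types the cultures could hold were compared beside the Sox genes. In vehicle 2 of 11 astrocyte markers fell, Slc1a2, a glutamate transporter gene, by 2.03 log2 units (adjusted p = 0.00204), and the glycolytic gene Aldoc by 1.71 (adjusted p = 3.57e-05), and 1 of 11 neuronal markers fell, the synaptic vesicle gene Syt1, by 1.59 (limma, adjusted p = 0.0149). These 3 genes were also called in Dex and on culture means, but without culture 4 the adjusted p of Syt1 in Dex was 0.0673. Of the neural stem and progenitor markers 0 of 11 were called in vehicle (1 at an unadjusted p under 0.05) and of the oligodendrocyte lineage markers 0 of 9 (1 at an unadjusted p under 0.05). Over all genes, 0.559% were called in vehicle, 0.564% in Dex and 0.733% on culture means. In vehicle 5.17% of all genes had an unadjusted p under 0.05. With the array cluster, drawn from these same arrays, as a covariate, 1.93% of all genes were called in vehicle. In that fit 1 of the 11 neural stem and progenitor markers rose, the membrane glycoprotein gene Prom1, by 1.42 (adjusted p = 0.0164), and 1 of the 9 oligodendrocyte lineage markers, the proteoglycan gene Cspg4, by 1.37 (adjusted p = 0.0356). Among the astrocyte markers Nfib, which encodes a transcription factor, fell as well, by 0.49 (adjusted p = 0.0408). The mean over the 11 astrocyte markers was 10.74 to 12.01 (median 11.31) in SOX2 KO and 10.85 to 12.10 (median 11.98) in WT vehicle arrays. On Dex arrays the median was 11.48 in SOX2 KO and 12.01 in WT. The list mean itself was not tested between genotypes. The microglial, endothelial and mesenchymal lists had 0 calls and 0 genes at an unadjusted p under 0.05 in vehicle. The part of these markers in the Sox values was not tested, and fewer cells of a type cannot be told apart from less RNA per cell in these bulk arrays.

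Symbols of predicted or unnamed loci were left out when genes were ranked by likeness to Sox2. Over the 13 culture means the named genes most like Sox2, by Pearson's r, were Fndc3c1 (0.986), the GABA transporter gene Slc6a11 (0.945) and the potassium channel gene Kcna2 (0.940). The 13 points fall into the 2 genotypes with a gap between them, so r describes that gap, and it is given with no p. Fndc3c1 averaged 6.66 ± 0.40 in SOX2 KO and 11.29 ± 0.42 in WT cultures, Slc6a11 averaged 12.84 ± 0.51 in SOX2 KO and 14.75 ± 0.28 in WT cultures, and Kcna2 averaged 8.46 ± 0.38 in SOX2 KO and 10.60 ± 0.48 in WT cultures (SD, n = 7 and 6). No SOX2 KO culture overlapped a WT culture for any of the 3, and choosing genes by r to Sox2 favours such a gap. The share of all genes without overlap was not counted. None of the 3 is a Sox gene.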

How the data were processed

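The labels describe biotin-labelled cRNA on 1-colour arrays. The authors deposited 1 table of processed values, taken here as log2 expression from the values themselves (2.22 to 19.81, 2 decimals). The log base and the normalization are not given in the sources used here. Of 22206 transcript clusters, 19572 carried 1 gene symbol and 2634 none, and all 19572 matched RefSeq through their Entrez ID. The transcript cluster of highest mean stood for a gene (55 genes had more than 1), which gave 19505 genes.

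limma 3.58.1 in R 4.3.3 fitted 1 mean for each of the 4 groups to all 26 arrays and, for genotype, to the means of the 13 cultures, with Benjamini-Hochberg adjustment over all genes and a threshold of 0.05. The number of arrays limits the precision. After group means were removed, the pair of arrays sharing a number had correlations of 0.31 to 0.73 over the 13 numbers, so fits with the culture as a replicate block are given beside the Dex results. The clusters came from average linkage on correlation distance between cultures, with the group means removed, and the tree was cut at 3. Alternatives were scaling, a filter on low means, averaging transcript clusters of a gene, the cluster or the Y-linked gene Eif2s3y as a covariate (Eif2s3y was added after the data were seen), 2 groups only, and leaving out each culture. The scripts were tested on simulated data. The members and lists were chosen with earlier results of these data known. The text names the 10 members, other Sox genes that pass, up to 4 genes of smallest p per list and the 3 genes most like Sox2. These 3 were picked after symbols of predicted or unnamed loci were left out.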

Additional observations from a re-analysis of the deposited data

Results flagged for a closer look

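Of the 60 groups of values examined, the levels of 10 genes in 4 groups and their Dex differences in either genotype, 5 held a sample far from the others, where chance would give 3. The WT Dex array of culture 4 had Sox3 at 9.57, next to 7.94 for the nearest WT Dex array, and Sox4 at 11.48, next to 10.67. The WT vehicle array of the same culture had Sox5 at 9.99, next to 9.31. Culture 4 is the culture whose glucocorticoid-induced genes ran against its labels and the 1 WT culture of array cluster 2. The SOX2 KO Dex array of culture 10, also of cluster 2, had Sox3 at 8.96, next to 8.22. The WT vehicle array of culture 3 had Sox1 at 10.38, next to 10.06. Why these arrays stand apart was not tested.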

How the results depend on the processing

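Under each setting run, Sox2 was the 1 member called in the 3 genotype comparisons and no member was called for Dex. Under the filter on low means Sox21 was not tested, which left 9 members. The Sox2 difference between SOX2 KO and WT stayed between -8.90 and -8.56 in vehicle, -8.46 and -8.00 in Dex and -8.68 and -8.31 on culture means. Among the other 9 genes the smallest adjusted p was 0.684 in vehicle (Sox4, without culture 4), 0.210 in Dex (Sox11, cluster covariate), 0.167 on culture means (Sox21, cluster covariate) and 0.0825 for the averaged Dex effect (Sox9, replicate block and no culture 4). Of 1364 values uncalled both ways, 18 had the other sign. Counts over all genes moved more. Leaving out 1 culture gave 75 to 143 genes in vehicle (109 with all), 69 to 160 in Dex (110) and 85 to 182 on culture means (143). It gave 3 to 16 for Dex in SOX2 KO (10), 0 to 7 for Dex in WT (0) and 5 to 31 for Dex averaged over genotypes (15). The cluster covariate gave 376, 397 and 550 genes for the 3 genotype comparisons, 25 for Dex in SOX2 KO and 30 for the averaged effect, and quantile normalization gave 168, 171 and 217 between genotypes and 18 for Dex in SOX2 KO. With only the 2 groups compared, 72 were called in Dex. The replicate block gave 14 genes for Dex in SOX2 KO, 0 in WT and 28 averaged, and without culture 4 it gave 49, 33 and 97, with no change in the call of any Sox gene. The causes were not tested. No scaling moved the median of all genes by over 0.1.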
